A study of Rattus norvegicus with 15 samples.

Results

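The collagen chains of the rat prostate are described here across untreated tissue, a prostatitis model and the same model after ultrasound. The deposited table was searched for symbols made of Col, 1 or 2 digits, the letter a, and 1 or 2 digits, and 43 of its 22436 genes matched. By the structure their chains are known to build, 11 were fibrillar, 6 belonged to the basement membrane, 6 were of the beaded filament type VI and 9 were FACITs, the collagens that sit on the surface of fibrils. The other 11 were 2 multiplexins, 2 short-chain network chains, 1 anchoring fibril chain, 4 transmembrane chains and 2 chains outside these classes.

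A collagen molecule is a triple helix, each kind of chain is coded by its own gene, and the chains of a molecule may be identical or different. Fibrillar collagens I, III and V are made mainly by fibroblasts and smooth muscle cells and give the prostate stroma its tensile strength. Collagen IV forms the sheet under epithelium and around vessels and smooth muscle cells, collagen VI links that sheet to the fibrils, and FACITs decorate the fibril surface. In chronic prostatitis, collagen is usually discussed as a part of stromal scarring.

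RNA-seq of prostate tissue of SD rats was measured in 15 samples, 5 in each of 3 groups. Control samples were untreated, Model samples came from rats in which prostatitis with chronic pelvic pain was modelled and no ultrasound was given, and LIPUS samples received low-intensity pulsed ultrasound for 4 weeks. Its intensity is 1 W/cm2 by the sample titles but 1.5 W/cm2 by the treatment field. How the model was made, the age of the rats and whether each sample is a different animal are not stated. The p-values then measure only sample-to-sample spread, which may be technical. Libraries are called here by group and by the number 6 to 10 that the labels give them.

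The groups differed in library make-up as well as in collagen. Libraries held 29675962 to 36402094 reads, of which the mitochondrially encoded genes took 3.75 to 4.69% in Control, 23.5 to 43.5% in Model and 43.0 to 83.3% in LIPUS. FPKM divides the reads of a gene by its length and by a library total that includes those reads, and the median of the 12490 genes tested was lower by this scale (log2 change -0.90 in Model against Control, -0.60 in LIPUS against Model and -1.48 in LIPUS against Control). Changes are therefore also given relative to that median gene, and after median-of-ratios scaling, which brought the medians to -0.15, -0.02 and -0.15. The prostate markers Hoxb13, Pbsn, Msmb, Sbp, Scgb2a1 and Tmprss2 were in the table, and these 6 summed to 73015 to 122777 FPKM over Control, 23124 to 178877 FPKM over Model and 6860 to 78260 FPKM over LIPUS libraries. Genes with a read numbered 17997 to 18868 in Control, 14195 to 16284 in Model and 13035 to 15766 in LIPUS libraries. Library Model 7 had the fewest of its group (14195) and also stood low for collagen. Of 26 chains with a Control mean of at least 1 FPKM, 23 had their lowest Model value there.

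Start regions are shown for 3 places that the values below return to: a main chain of collagen I, the chain that did not pass the test in Model against Control, and the stretch shared by a pair of collagen IV genes. RefSeq on build GRCr8 gave windows of the 250 bases before the start for 34 collagen genes. They were searched on both strands for CCAAT, for GGGCGG (the GC box) and for TATAAA. In the sequences shown no match shares letters with one of another motif, while the last pair of GC box matches of Col8a2 share letters with each other. Each sequence is given 5′ to 3′ on the plus strand, with matches in capitals, so that a match on the minus strand reads as its reverse complement. The first is chr4:33518307-33518406, 100 bases of the Col1a2 window, the second chr5:143870519-143870768, the whole Col8a2 window, and the third chr16:84885521-84885596, all 76 bases between the starts of Col4a1 (plus strand) and Col4a2 (minus strand).
Col1a2: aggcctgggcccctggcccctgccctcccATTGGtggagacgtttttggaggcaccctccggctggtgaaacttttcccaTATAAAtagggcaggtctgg
Col8a2: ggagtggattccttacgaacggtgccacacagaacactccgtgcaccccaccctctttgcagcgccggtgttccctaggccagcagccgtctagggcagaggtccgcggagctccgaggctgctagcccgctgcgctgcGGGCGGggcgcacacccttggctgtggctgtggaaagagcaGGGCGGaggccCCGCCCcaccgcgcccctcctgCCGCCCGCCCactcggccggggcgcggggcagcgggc
Col4a1-Col4a2: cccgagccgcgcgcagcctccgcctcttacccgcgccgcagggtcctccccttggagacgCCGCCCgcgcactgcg
Col1a2 held a CCAAT match on the minus strand 221 bases before the start and a TATAAA match 170 bases before it. Col8a2 held 5 GC box matches, at 111, 70, 59, 37 and 33 bases before the start, and the Col4a1-Col4a2 stretch held 1 on the minus strand, 16 bases before the Col4a1 start. GGGCGG was in 19 of the 34 collagen windows (55.882%) and in 32.385% of the 27457 windows of the same length over all genes, CCAAT in 10 (29.412%) against 34.294%, and TATAAA in 3 (8.824%) against 13.086%. These matches describe letters and are no evidence that a factor binds. The other collagen IV genes are also paired head to head in RefSeq, with 412 bases between the starts of Col4a3 and Col4a4 and 1414 between those of Col4a5 and Col4a6.

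Collagen RNA was far lower in both prostatitis groups than in untreated prostate. Summed over the 43 chains, the level was 929 ± 280 FPKM in Control (SD, n = 5, 629 to 1327), 32.2 ± 14.9 FPKM in Model (SD, n = 5, 9.29 to 47.2) and 33.4 ± 5.25 FPKM in LIPUS (SD, n = 5, 26.4 to 38.8). Collagen reads made up 0.492% of all reads in Control, 0.0181% in Model and 0.0176% in LIPUS. After median-of-ratios scaling the means were 534, 32.7 and 58.3, so the Control sum stayed the highest and the order of Model and LIPUS depended on the scaling. In bulk tissue, fewer collagen-making cells and less collagen RNA per cell cannot be told apart.

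Measured without a filter on low values, 31 of the 43 chains fell in Model against Control (limma, adjusted p under 0.05) and none rose, where 29.0% of all 22436 genes fell and 1.78% rose. After scaling, 26 of 43 fell against 13.0% of all genes. For LIPUS the counts were 34 of 43 chains lower and none higher than in Control, against 48.4% and 0.686% of all genes, and 27 lower against 9.82% after scaling. The mean of 40 chains was lower in Model than in Control and that of 42 was lower in LIPUS, without regard to the test. The median of all 22436 genes was lower too (log2 change -0.47 in Model and -0.93 in LIPUS against Control, without the filter). The share of all genes with a lower mean was not counted. Both comparisons share the Control libraries and are not independent.

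A filter that asked for over 0.5 FPKM in 5 or more samples kept 27 chains. Of these, 14 reached 5 samples only with their Control libraries, and 9 of the 14 had no Model or LIPUS library above 0.5 FPKM. A difference was built into their passing, so the counts over the 27 are descriptions. For these 14 the standard errors and p-values of single chains given below come from the fit of all 22436 genes without the filter. In Model against Control 26 of the 27 fell and none rose, beside 43.1% and 2.95% of all 12490 genes tested, and 24 fell after scaling, beside 20.2%. The Model and Control libraries did not overlap for 25 of them, beside 41.4% of all genes tested, and for 24 after scaling, beside 18.3%. All 27 fell in LIPUS against Control and none rose, beside 74.4% and 0.953% of all genes tested, and after scaling 25 fell, beside 14.3%.

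**Figure D1:**
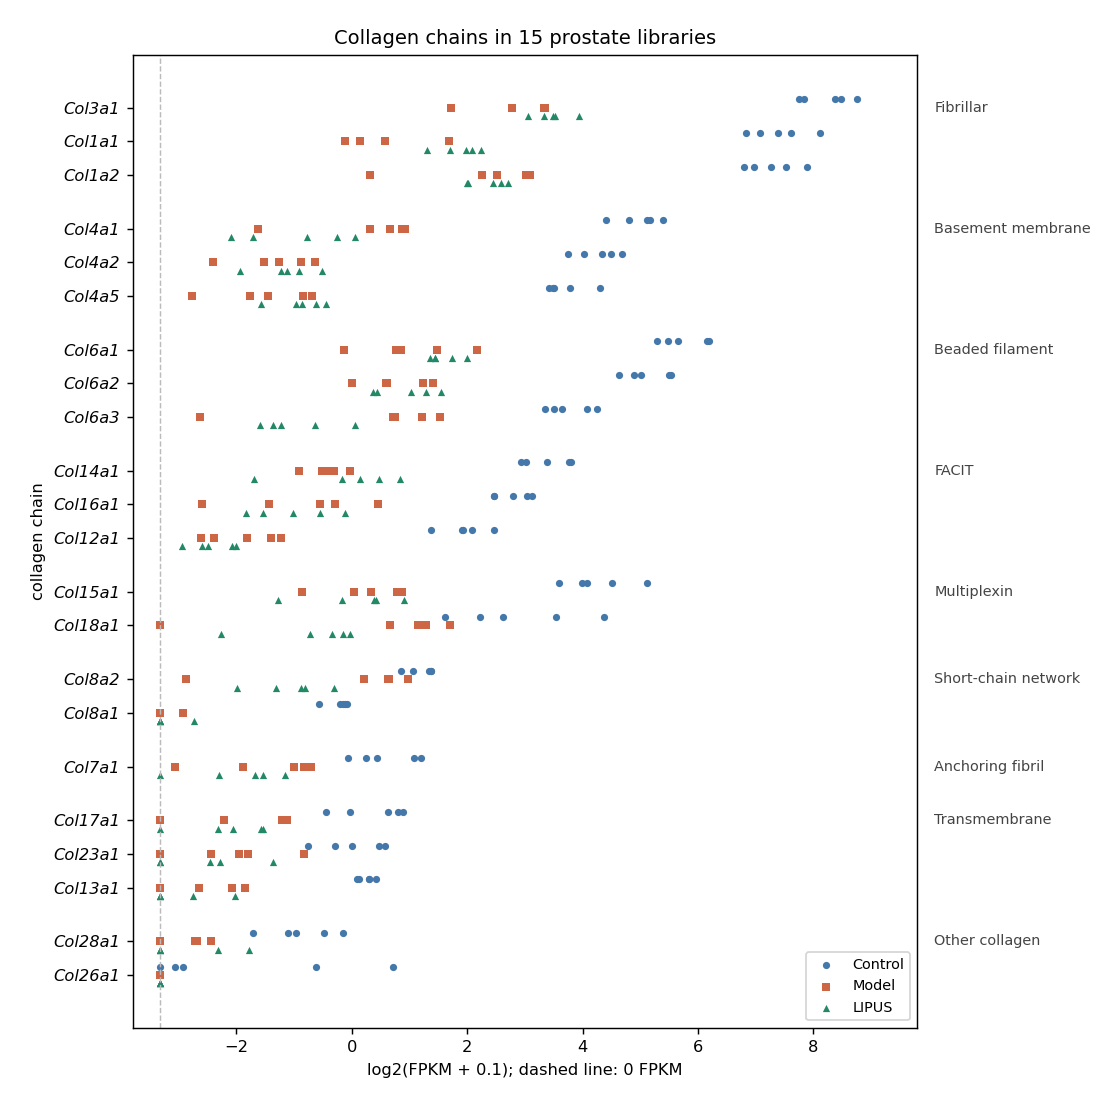
Levels of the 22 chains whose single values are given, 1 row per chain, grouped by class. The horizontal axis is log2(FPKM + 0.1), each mark is 1 library (circles Control, squares Model, triangles LIPUS), and the dashed line is 0 FPKM. Control circles lie to the right of all other marks in most rows, while in the Col8a2 row they reach Model squares.

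The fibrillar class had the highest summed level of the classes in every group. Col1a1 (gene 29393), the major chain of collagen I, measured 114, 195, 276, 135 and 167 FPKM in Control libraries 6 to 10. It measured 3.11, 0.824, 1.39, 0.999 and 3.11 FPKM in Model and 3.87, 2.35, 3.13, 4.15 and 4.60 FPKM in LIPUS. No library of either prostatitis group came near the lowest Control value, and Model 7 was the lowest of all. Its mean was 94.0 times lower in Model than in Control, a log2 change of -6.61 (SE 0.38, limma adjusted p = 1.24e-08) and of -5.71 relative to the median gene. In LIPUS against Control it fell by 5.54 on the log2 scale (SE 0.38, limma adjusted p = 8.61e-08), -4.06 relative to the median gene.

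Col1a2 (gene 84352), the other chain of collagen I, measured 111, 185, 236, 126 and 154 FPKM in Control, 8.46, 1.14, 5.60, 4.66 and 7.96 FPKM in Model and 3.93, 3.88, 5.35, 6.45 and 5.87 FPKM in LIPUS. Control stood clear of the other groups, which overlapped each other. Its log2 change was -5.05 in Model against Control (SE 0.43, limma adjusted p = 3.50e-07). It was -4.94 in LIPUS against Control (SE 0.43, limma adjusted p = 5.85e-07). Its start region is the first sequence printed above.

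Col3a1 (gene 84032), the single chain of collagen III, which forms fine fibrils together with collagen I in extensible tissue, was the most abundant chain per length in every group. It measured 215, 355, 434, 229 and 330.2 FPKM in Control, 10.1, 3.18, 6.76, 6.72 and 9.96 FPKM in Model and 9.98, 8.19, 15.2, 11.2 and 11.4 FPKM in LIPUS. Model 7, 8 and 9 lay below every LIPUS library, and all of these lay far below Control. The chain fell by 5.45 in Model (SE 0.32, limma adjusted p = 1.45e-08), and it fell by 4.77 in LIPUS (SE 0.32, limma adjusted p = 8.61e-08) against Control, both on the log2 scale.

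Col5a1, Col5a2 and Col5a3 code collagen V, which starts fibrils and limits their width. Their Control means were 12.6 ± 3.59, 17.7 ± 4.54 and 2.64 ± 0.843 FPKM (SD, n = 5). Model means were 0.296 ± 0.120, 1.27 ± 0.559 and 0.138 ± 0.103 FPKM, and LIPUS means 0.343 ± 0.235, 1.03 ± 0.417 and 0.109 ± 0.154 FPKM (SD, n = 5). All 3 fell in both groups against Control, with log2 changes of -5.02, -3.81 and -3.58 in Model. With limma-voom these were -4.71, -3.20 and -3.84, so the order of Col5a2 and Col5a3 depended on the scale. Col11a1, a chain of the cartilage collagen XI, fell from 1.13 ± 0.463 FPKM in Control to 0.101 ± 0.0821 FPKM in Model (SD, n = 5, log2 change -2.65). The fibrillar chains Col11a2, Col24a1 and Col27a1 were at most 0.709 FPKM in any library and did not pass the test in Model against Control without the filter (limma adjusted p = 0.720, 0.446 and 0.278). In LIPUS against Control Col24a1 fell (limma adjusted p = 0.0208) but not after scaling (0.314). Col2a1, the collagen of cartilage, had 1 read, in a Control library.

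All 6 basement membrane chains fell in Model and in LIPUS against Control. Col4a1 (gene 290905) and Col4a2 (gene 306628) together make the common collagen IV molecule. Col4a1 measured 21.0, 35.9, 42.2, 28.0 and 34.4 FPKM in Control, 1.80, 0.224, 1.15, 1.47 and 1.73 FPKM in Model and 0.481, 0.740, 0.133, 0.938 and 0.207 FPKM in LIPUS. Model 7 and LIPUS 8 and 10 were the lowest, and no prostatitis library reached the Control range. The log2 change was -4.75 in Model (SE 0.50, limma adjusted p = 2.45e-06) and -5.94 in LIPUS (SE 0.50, limma adjusted p = 4.77e-07), both against Control.

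Col4a2 measured 13.3, 22.4, 25.7, 16.2 and 20.1 FPKM in Control, 0.541, 0.0881, 0.319, 0.248 and 0.445 FPKM in Model and 0.360, 0.162, 0.327, 0.428 and 0.603 FPKM in LIPUS. Every library of both prostatitis groups was below 1 FPKM, and every Control library was above 10 FPKM. Its log2 changes were -5.60 (SE 0.36, limma adjusted p = 2.78e-07) in Model and -5.40 (SE 0.36, limma adjusted p = 4.73e-07) in LIPUS. The pair shares the 76 bases between its starts printed above, and the ratio between the chains differed between groups, as given further on.

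Col4a5 (gene 363457) codes a chain of the collagen IV of smooth muscle and some epithelia. It measured 10.6, 13.7, 19.5, 11.3 and 11.1 FPKM in Control, 0.522, 0.0468, 0.194, 0.457 and 0.267 FPKM in Model and 0.236, 0.409, 0.631, 0.447 and 0.554 FPKM in LIPUS, with Control clear of the rest. It fell by 5.20 in Model (SE 0.39, limma adjusted p = 6.82e-07), and it fell by 4.60 in LIPUS (SE 0.39, limma adjusted p = 2.26e-06), on the log2 scale. Col4a6, which assembles with Col4a5, and Col4a3 and Col4a4, known from kidney, lung and eye, had Control means of 1.85 ± 1.34, 3.32 ± 1.12 and 2.47 ± 1.06 FPKM (SD, n = 5). All 3 fell in both groups against Control, with log2 changes of -2.87, -4.47 and -4.01 in Model. With limma-voom Col4a6 did not pass in LIPUS against Control (adjusted p = 0.0579), and after scaling its LIPUS and Control libraries overlapped. Col4a4 had reads in 1 Model and 1 LIPUS library only, and the length behind its FPKM, 1152 bases, was the shortest among the 43 chains. The labels do not say whether counting used the strand, so reads where genes on opposite strands overlap cannot be assigned with certainty.

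The beaded filament class is collagen VI, a fine network around cells in most connective tissue. Col6a1 (gene 294337) measured 39.0, 71.2, 73.2, 44.6 and 50.5 FPKM in Control, 4.38, 0.808, 1.71, 1.60 and 2.70 FPKM in Model and 2.61, 2.62, 3.88, 3.25 and 2.45 FPKM in LIPUS. Col6a2 (gene 361821) measured 24.5, 45.0, 46.4, 29.7 and 32 FPKM in Control, 2.55, 0.908, 1.43, 1.41 and 2.25 FPKM in Model and 2.83, 1.19, 1.92, 2.33 and 1.25 FPKM in LIPUS. For both chains Control stood clear of the other groups, which overlapped each other. Col6a1 fell by 4.73 in Model (SE 0.36, limma adjusted p = 1.58e-07), and it fell by 4.16 in LIPUS (SE 0.36, limma adjusted p = 6.34e-07). Col6a2 fell by 4.34 in Model (SE 0.34, limma adjusted p = 1.58e-07), and it fell by 4.18 in LIPUS (SE 0.34, limma adjusted p = 3.76e-07), all on the log2 scale.

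Col6a3 (gene 367313), the longest collagen VI chain of the main molecule, measured 10.1, 16.7, 19.0, 11.2 and 12.5 FPKM in Control, 2.78, 0.0617, 1.55, 1.58 and 2.21 FPKM in Model and 0.289, 0.937, 0.234, 0.546 and 0.329 FPKM in LIPUS. Model libraries other than Model 7 lay above every LIPUS library, while Model 7 lay below all of them. Its log2 change was -3.45 in Model (SE 0.61, limma adjusted p = 3.09e-04) and -4.72 in LIPUS (SE 0.61, limma adjusted p = 1.50e-05), both against Control. Col6a5, an alternative to Col6a3, fell from 2.84 ± 0.373 FPKM in Control to 0.263 ± 0.144 FPKM in Model and 0.216 ± 0.134 FPKM in LIPUS (SD, n = 5). Col6a6, a further alternative with 0.164 to 0.725 FPKM in Control, fell in both groups without the filter (limma adjusted p = 8.17e-04 and 2.99e-04). Col6a4 reached at most 0.0755 FPKM.

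Among the FACITs, Col14a1, Col16a1 and Col12a1 carried most of the level. Col14a1 (gene 314981), which regulates fibril growth in skin and tendon, measured 7.55, 13.5, 13.8, 7.96 and 10.4 FPKM in Control, 0.599, 0.704, 0.629, 0.429 and 0.882 FPKM in Model and 1.29, 0.209, 1.68, 0.791 and 1.01 FPKM in LIPUS. It is one of the 3 chains with a Control mean of at least 1 FPKM for which Model 7 was not the lowest Model library. It fell by 3.83 in Model (SE 0.41, limma adjusted p = 2.99e-06), and it fell by 3.46 in LIPUS (SE 0.41, limma adjusted p = 7.49e-06), on the log2 scale.

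Col16a1 (gene 366474) measured 5.39, 8.59, 8.07, 5.42 and 6.87 FPKM in Control, 0.578, 0.0660, 0.271, 1.27 and 0.713 FPKM in Model and 0.243, 0.395, 0.820, 0.585 and 0.180 FPKM in LIPUS. Col12a1 (gene 25683), found in tissue under tension, measured 2.48, 4.16, 5.42, 3.66 and 3.68 FPKM in Control, 0.329, 0.0625, 0.182, 0.0915 and 0.280 FPKM in Model and 0.0766, 0.137, 0.0656, 0.150 and 0.0301 FPKM in LIPUS. Neither had a prostatitis library inside the Control range. Their log2 changes in Model were -3.66 (SE 0.49, limma adjusted p = 2.68e-05) and -3.84 (SE 0.35, limma adjusted p = 4.12e-06). In LIPUS they were -3.79 (SE 0.49, limma adjusted p = 1.57e-05) and -4.37 (SE 0.35, limma adjusted p = 1.76e-06). The other 6 FACITs, Col9a1, Col9a2, Col9a3, Col19a1, Col20a1 and Col22a1, stayed at 0 to 0.381 FPKM in every library. Of these, Col9a2, a cartilage FACIT chain, fell in Model and in LIPUS without the filter (limma adjusted p = 0.00194 and 9.83e-04), and Col20a1 fell in LIPUS (0.0350) but not after scaling (0.639).

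Col15a1 and Col18a1 are the multiplexins, basement membrane collagens of vessels and epithelia, and the second is the source of endostatin. Col15a1 (gene 298069) measured 11.9, 22.8, 34.4, 15.7 and 16.8 FPKM in Control, 1.73, 0.450, 0.923, 1.16 and 1.62 FPKM in Model and 0.311, 0.788, 1.23, 1.77 and 1.20 FPKM in LIPUS. Its log2 change was -4.02 in Model (SE 0.44, limma adjusted p = 3.47e-06) and -4.21 in LIPUS (SE 0.44, limma adjusted p = 2.67e-06). Control stood clear of both groups.

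Col18a1 (gene 85251) had Control and Model libraries that overlapped. It measured 2.95, 11.6, 20.6, 4.59 and 6.02 FPKM in Control, 2.13, 0, 1.49, 2.34 and 3.16 FPKM in Model and 0.503, 0.800, 0.108, 0.879 and 0.685 FPKM in LIPUS. The highest Model library exceeded the lowest Control library, and Model 7 had no read, which allows up to 3 reads or 0.0168 to 0.0184 FPKM over the Model libraries, for counting error only. The log2 change in Model was -2.57 (SE 0.80, limma adjusted p = 0.0148), and after scaling it did not pass (-1.77, limma adjusted p = 0.123). In LIPUS it was -3.58 (SE 0.80, limma adjusted p = 0.00107), and it again did not pass after scaling (limma adjusted p = 0.0677). With limma-voom it passed in neither (adjusted p = 0.0796 and 0.199).

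The short-chain network chains Col8a1 and Col8a2 build the lattice under endothelium and around vessels. Col8a1 (gene 304021) measured 0.575, 0.767, 0.821, 0.846 and 0.801 FPKM in Control, against 4 reads in library 6 and none in the other Model libraries, and 6 reads in library 7 and none in the other LIPUS libraries. It fell in both groups (log2 change -3.02, SE 0.18, limma adjusted p = 1.95e-07 in Model, and -2.98, SE 0.18, limma adjusted p = 2.74e-07 in LIPUS). Col8a2 (gene 313592) measured 1.71, 2.44, 2.50, 2.49 and 1.99 FPKM in Control, 1.47, 0.0364, 1.06, 1.87 and 1.45 FPKM in Model and 0.153, 0.442, 0.472, 0.712 and 0.304 FPKM in LIPUS. In 4 of 5 Model libraries it stood at 1.06 to 1.87 FPKM, and only library Model 7 was near 0. It was the one tested chain that did not pass in Model against Control (log2 change -1.28, SE 0.58, limma adjusted p = 0.0797, and -0.52 with limma adjusted p = 0.548 after scaling), though it passed with a pseudocount of 1 (-0.64, limma adjusted p = 0.0228). In LIPUS against Control it fell by 2.26 (SE 0.58, limma adjusted p = 0.00285) but did not pass after scaling (limma adjusted p = 0.263) or with limma-voom (adjusted p = 0.342). Its 5 GC box matches are in the second sequence above, and the Col8a1 window held 4.

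Col7a1 (gene 301012), the anchoring fibril chain that fastens basement membranes to the stroma beneath, measured 0.856, 2.02, 2.18, 1.08 and 1.25 FPKM in Control, 0.398, 0.0198, 0.169, 0.515 and 0.461 FPKM in Model and 0, 0.349, 0.246, 0.213 and 0.102 FPKM in LIPUS. The Control libraries were all higher than the rest. It fell in Model (log2 change -2.08, SE 0.52, limma adjusted p = 0.00755) and in LIPUS (-2.58, limma adjusted p = 0.00119). It passed in neither after scaling (limma adjusted p = 0.0937 and 0.0721; with the filter, 0.0572 and 0.0445) and in neither with limma-voom (adjusted p = 0.0625 and 0.101).

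Of the transmembrane chains, Col17a1, which anchors basal epithelial cells in hemidesmosomes, measured 0.638, 1.64, 1.74, 0.877 and 1.45 FPKM in Control, 0.347, 0, 0.115, 0.332 and 0.358 FPKM in Model and 0.245, 0.236, 0.138, 0.101 and 0 FPKM in LIPUS. Col13a1, a muscle and nerve junction collagen, measured 1.12, 1.24, 0.996, 0.962 and 1.13 FPKM in Control, 0.177, 0, 0, 0.137 and 0.0594 FPKM in Model and 0.147, 0, 0, 0.0481 and 0 FPKM in LIPUS. Both fell in Model (log2 changes -2.18 and -2.89, limma adjusted p = 0.00417 and 3.89e-05) and in LIPUS (-2.53 and -3.19, limma adjusted p = 9.59e-04 and 1.57e-05). Col17a1 did not pass in Model after scaling (limma adjusted p = 0.0565; with the filter, 0.0348) or in LIPUS with limma-voom (adjusted p = 0.139). Col23a1 measured 0.492, 1.38, 0.903, 0.715 and 1.29 FPKM in Control, 0.188, 0, 0.0831, 0.159 and 0.465 FPKM in Model and 0.288, 0.0819, 0, 0.105 and 0 FPKM in LIPUS. It missed the filter by 1 library and fell in both groups without it (limma adjusted p = 0.00532 and 8.48e-04), in Model not after scaling (0.0801). Col25a1, with at most 0.0379 FPKM, fell in both groups as deposited (limma adjusted p = 0.0201 and 0.0392) but in neither after scaling (0.0642 and 0.222).

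Col28a1 measured 0.206, 0.365, 0.805, 0.619 and 0.412 FPKM in Control, 0.0551, 0, 0.0520, 0 and 0.0831 FPKM in Model and 0.190, 0, 0, 0 and 0.101 FPKM in LIPUS, and fell in both groups without the filter (limma adjusted p = 9.27e-04 and 7.92e-04), in LIPUS not after scaling (0.150). Col26a1 measured 0.0190, 1.53, 0.552, 0 and 0.0318 FPKM in Control and had no read in any Model or LIPUS library, where 0 reads allow up to 0.0276 to 0.0303 FPKM in Model and 0.0291 to 0.0331 FPKM in LIPUS. Its Control values spread from 0 to 1.53 FPKM, and it did not pass the test without the filter (limma adjusted p = 0.0764 and 0.0537).

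The class medians below describe chains that passed the filter, and 5 of the 6 basement membrane chains, 3 of the 7 fibrillar, 1 of the 4 beaded filament and 1 of the 3 FACIT chains passed only with their Control libraries. On the log2(FPKM + 0.1) scale the median change relative to the median gene in Model against Control was -4.12 for the fibrillar, -3.71 for the basement membrane, -3.0 for the beaded filament and -2.93 for the FACIT chains. In LIPUS against Control the medians were -3.29, -3.04, -2.69 and -2.30 in the same order. With limma-voom the order of the first 2 classes turned, with median log2 changes of -4.33 (fibrillar) and -5.21 (basement membrane) in Model and -3.66 and -4.83 in LIPUS, so these data give no order between them. Single chains spread widely within a class on the log2(FPKM + 0.1) scale, the fibrillar chains from -5.71 (Col1a1) to -1.75 (Col11a1) in Model and the basement membrane chains from -4.70 (Col4a2) to -1.98 (Col4a6). This scale understates the fall of low chains. With limma-voom the log2 change in Model was -3.59 for Col11a1, and Col4a3 (-6.04) lay below Col4a2 (-5.33).

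**Figure D2:**
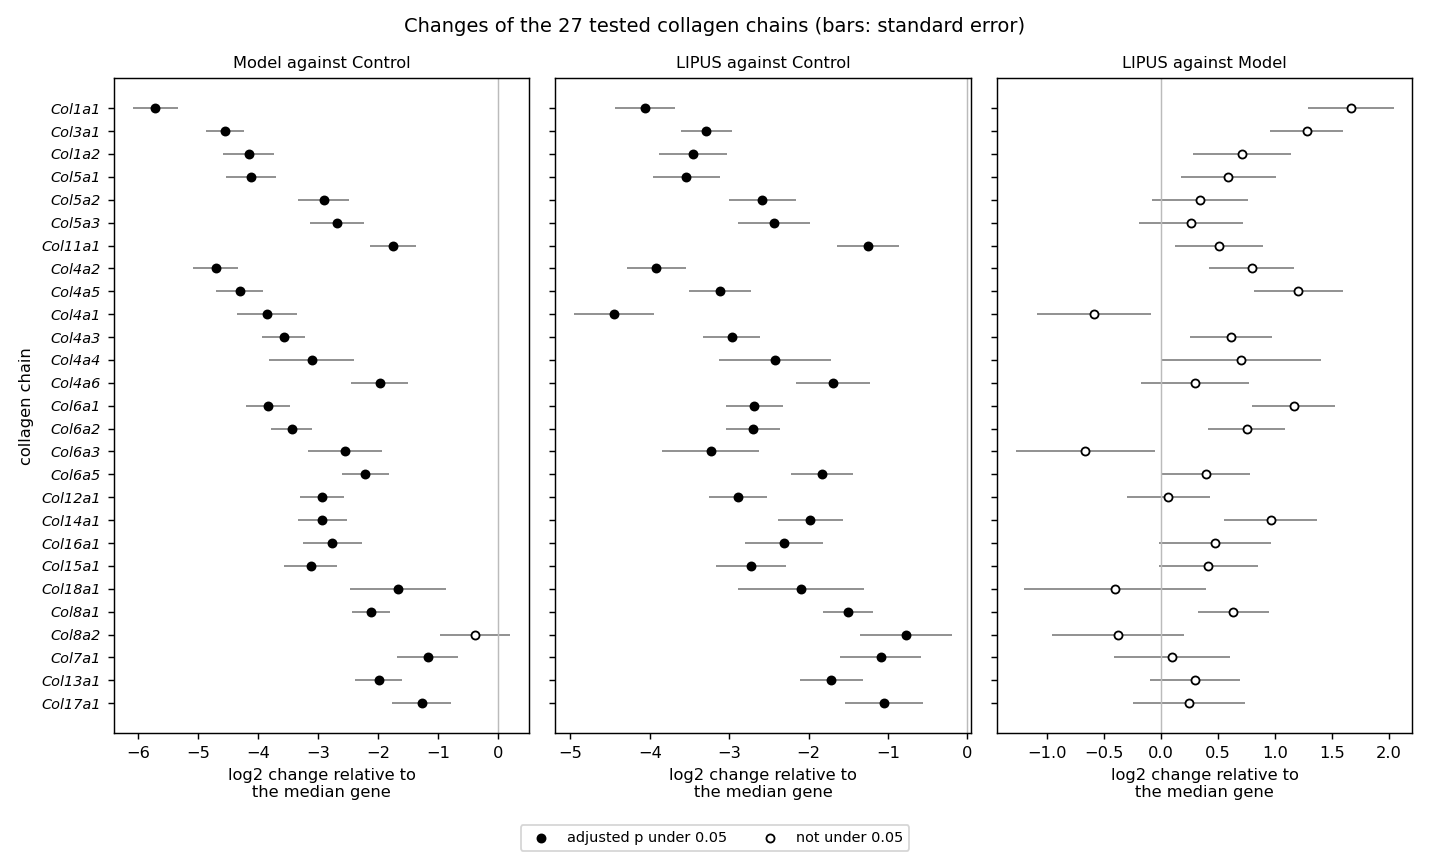
Change of each of the 27 tested chains in 3 comparisons, grouped by class from top to bottom. The horizontal axis is the log2 change relative to the median of all tested genes, bars are the standard error, and filled marks have a limma adjusted p under 0.05 on the values as deposited. Bars and fills come from the fit with the filter for all 27 chains. For the 14 chains that passed only with their Control libraries a difference from Control was built in, so their fills are descriptions. Against Control, marks are filled on the negative side except Col8a2 in Model, and in LIPUS against Model no mark is filled.

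The classes made up different parts of the collagen total in the 3 groups, which is described here without a test. The fibrillar class held 73.9 ± 1.31% of the summed collagen FPKM in Control (SD, n = 5), 55.0 ± 4.93% in Model (SD, n = 5) and 65.1 ± 4.31% in LIPUS (SD, n = 5). No Model or LIPUS library reached the lowest Control share of 72.6%. The beaded filament class held a Control share of 11.8 ± 0.919%, a Model share of 18.3 ± 2.57% and a LIPUS share of 16.9 ± 2.91% (SD, n = 5). The FACITs held 2.40 ± 0.188%, 5.99 ± 2.12% and 4.95 ± 1.77% (SD, n = 5). The basement membrane class held 7.92 ± 0.460%, 6.59 ± 1.96% and 5.16 ± 1.36% (SD, n = 5), with Model and Control overlapping. The multiplexins had a mean share of 3.02% in Control, 8.65% in Model and 4.94% in LIPUS, and the short-chain network, mostly Col8a2, stood at 0.338%, 3.28% and 1.27%.

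**Figure D3:**
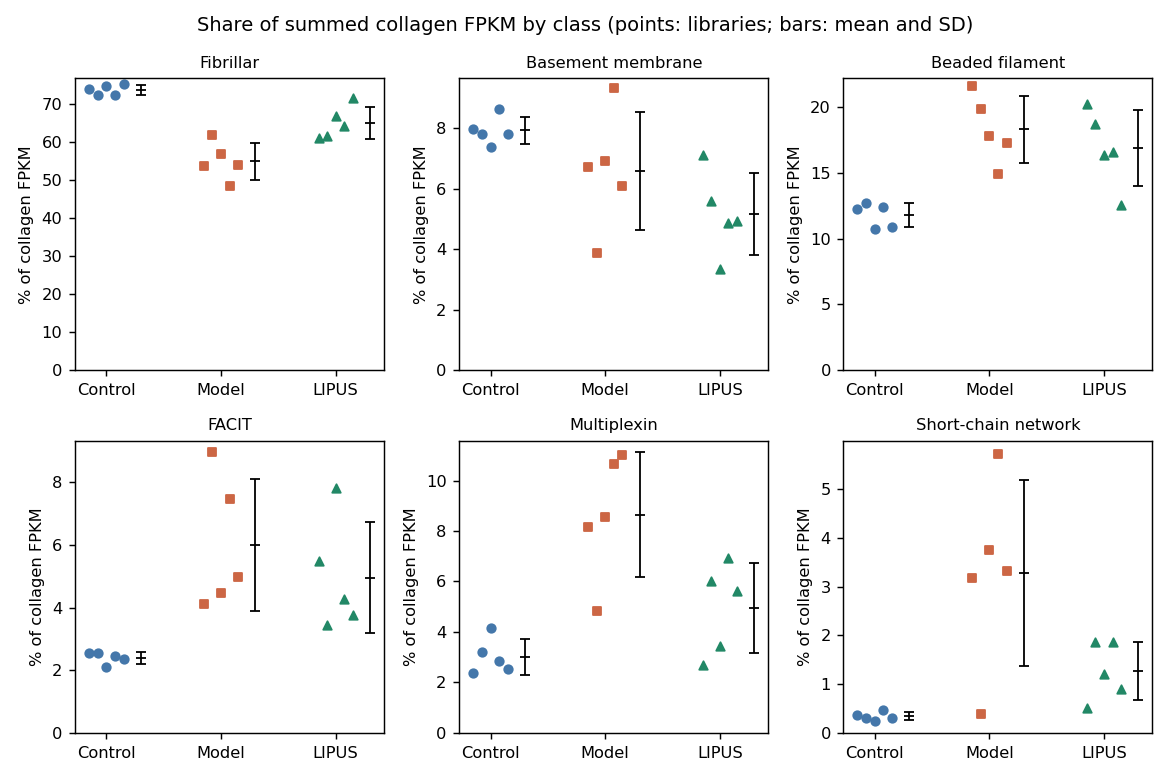
Share of 6 collagen classes in the summed collagen FPKM of each library. The vertical axes are percent from 0, each with its own range, points are libraries, and bars are the mean and SD. Fibrillar shares are highest in Control (72.6 to 75.5%), and beaded filament, FACIT, multiplexin and short-chain shares have their highest means in Model.

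A ratio between chains within a library moves with the scaling of that library only through the pseudocount. Ratios of 8 pairs were compared in the 3 comparisons as log2 ratios of FPKM + 0.1, giving 24 two-sided exact permutation tests, in which the smallest possible p is 0.00794. The tests past an adjusted p of 0.05 numbered 9, each at adjusted p = 0.0212: 5 in Model against Control, 1 in LIPUS against Model and 3 in LIPUS against Control. The Col1a1 to Col1a2 ratio was close to even in Control (log2 0.11 ± 0.07, SD, n = 5). It was -1.45 ± 0.66 in Model and -0.49 ± 0.30 in LIPUS (SD, n = 5), and both groups lay below every Control library. Col1a1 was thus reduced more than its partner Col1a2 in both groups.

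For Col3a1 to Col1a1 the log2 ratio averaged 0.84 ± 0.13 over Control, 2.0 ± 0.42 over Model and 1.61 ± 0.40 over LIPUS (SD, n = 5). Both groups lay above every Control library. The Control libraries had a Col5a1 to Col5a2 ratio of -0.48 ± 0.08, the Model libraries one of -1.70 ± 0.50 and the LIPUS libraries one of -1.44 ± 0.98 (SD, n = 5). The LIPUS spread came from LIPUS 7, at -3.19, while the other 4 lay between -1.08 and -0.89.

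For collagen IV, the Col4a1 to Col4a2 ratio was 0.72 ± 0.06 in Control (0.66 to 0.78 over its libraries) and 1.57 ± 0.50 in Model (SD, n = 5). In LIPUS it was 0.19 ± 1.22 (SD, n = 5), from -1.19 to 1.68, and did not differ from Control past the threshold (exact permutation, two-sided, adjusted p = 0.390). With a pseudocount of 1 in place of 0.1 the Model difference shrank to 0.03 and was no longer past the threshold (exact permutation, adjusted p = 0.897). Col4a2 was below 1 FPKM in every Model library. With the same pseudocount the LIPUS ratio fell below Control (difference -0.59, exact permutation, adjusted p = 0.0173). Without LIPUS 7 the Col4a1 to Col4a2 ratio was lower in LIPUS than in Model (difference -1.76, exact permutation, adjusted p = 0.0476). The Col5a1 to Col5a2 differences in Model and LIPUS were also lost with that pseudocount (exact permutation, adjusted p = 0.0952 and 0.563).

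The basement membrane chain Col4a1 against the fibrillar chain Col1a1 was the one pair whose ratio passed in LIPUS against Model, and it passed in Model against Control as well. Its log2 value was -2.43, -2.44, -2.70, -2.26 and -2.27 in Control, -0.75, -1.51, -0.25, 0.52 and -0.81 in Model, and -2.77, -1.55, -3.79, -2.03 and -3.94 in LIPUS. On this scale every Model library lay above every Control and every LIPUS library. Without a pseudocount the plain ratio was 0.272 in Model 7 and 0.314 in LIPUS 7, so Model and LIPUS then overlapped. The LIPUS mean was 2.25 below the Model mean (exact permutation, two-sided, adjusted p = 0.0212). LIPUS and Control overlapped (difference -0.39, exact permutation, adjusted p = 0.450), a difference that turned to 0.76 with a pseudocount of 1 (exact permutation, adjusted p = 0.0173).

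The Col6a1 to Col6a2, Col6a3 to Col6a1 and Col15a1 to Col18a1 ratios passed in no comparison with a pseudocount of 0.1 and all libraries. In Model against Control their differences were -0.39, 1.28 and -1.45 (exact permutation, two-sided, adjusted p = 0.0879, 0.0879 and 0.102). Model 7 stood apart in the last 2: without it the Col6a3 to Col6a1 difference was 1.72 and that of Col15a1 to Col18a1 -2.08 (exact permutation, adjusted p = 0.0173 for each). Col6a3 to Col6a1 in LIPUS against Model was -1.83 (exact permutation, adjusted p = 0.0571), -2.28 without Model 7 (adjusted p = 0.0293) and -2.12 without LIPUS 7 (adjusted p = 0.0476). Without LIPUS 7 that ratio was also lower in LIPUS than in Control (difference -0.84, exact permutation, adjusted p = 0.0190). Without Model 6, Col6a1 to Col6a2 passed in Model against Control (-0.52, exact permutation, adjusted p = 0.0212). With a pseudocount of 1, all 3 pairs passed in Model against Control (-0.44, 1.60 and -1.52, exact permutation, adjusted p = 0.0317, 0.0173 and 0.0173), Col6a3 to Col6a1 passed in LIPUS against Model (-1.12, adjusted p = 0.0173), and Col15a1 to Col18a1 passed in LIPUS against Control (-0.90, adjusted p = 0.0440). Without Model 7, Col1a1 to Col1a2 in LIPUS against Model also passed (1.21, exact permutation, adjusted p = 0.0173).

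**Figure D4:**
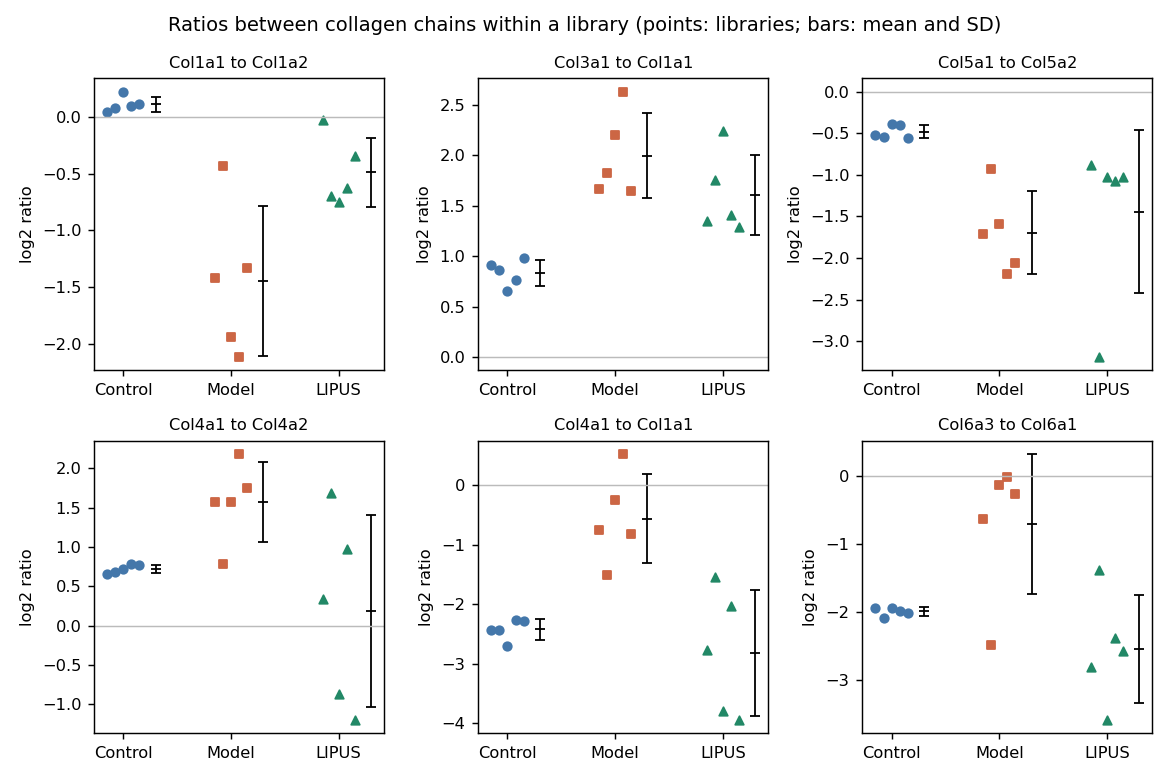
Ratios of 6 chain pairs, 1 panel each. The vertical axis is the log2 ratio of FPKM + 0.1 within a library, points are libraries, bars are the mean and SD, and the grey line is an even level. Control libraries lie close together in each panel, and in the Col4a1 to Col1a1 panel every Model library is above every Control and LIPUS library.

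Ultrasound against Model, the comparison that bears on the treatment, gave no collagen chain past the threshold. Of the 27 tested chains 0 fell and 0 rose (limma, adjusted p under 0.05), beside 13.3% and 1.31% of all genes tested. The same counts came from scaled values, beside 1.49% lower and 2.73% higher, and from limma-voom on recovered reads, beside 0.224% and 0.424%. The count over all genes rested on single libraries: of 12490 genes, 4 were lower without Model 9, 5 without Model 10, 14 without Model 8, 11 without LIPUS 6, 198 without Model 6 and 4345 without LIPUS 7, and 0 were when only LIPUS and Model were fitted. At an unadjusted p under 0.05 there were 3 chains, Col1a1 (log2 change 1.07, SE 0.38, limma adjusted p = 0.0611), Col3a1 (0.68, SE 0.32, limma adjusted p = 0.131) and Col4a1 (-1.19, SE 0.50, limma adjusted p = 0.0975). No tested chain had groups without overlap, beside 4.22% of all genes tested that were lower without overlap and 0.536% that were higher. The standard errors of these changes were 0.32 to 0.80 log2 units in the fit with the filter, so a missed threshold does not show equal levels.

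As deposited, 11 of the 27 chains had a positive change and 16 a negative one. Relative to the median gene, which itself was 0.60 lower in LIPUS, 23 of the 27 had a positive change, with a median of 0.47. These signs are descriptions, as 14 of the 27 passed the filter only with their Control libraries. The pseudocount keeps changes between levels near 0 small, and the lower median gene then makes them positive. Col8a1, with 4 reads in Model and 6 in LIPUS, thus stood at 0.63. The class medians were 0.59 (fibrillar), 0.66 (basement membrane, where 5 of the 6 chains passed only with Control), 0.57 (beaded filament) and 0.47 (FACIT). The chains negative relative to the median gene were Col6a3 (-0.67), Col4a1 (-0.59), Col18a1 (-0.41) and Col8a2 (-0.38). After scaling, 18 of the 27 had a positive change.

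Without library Model 7, those 4 chains passed the test: Col6a3 (log2 change -2.0, SE 0.36, limma adjusted p = 0.0020), Col8a2 (-1.67, SE 0.35, limma adjusted p = 0.0036), Col4a1 (-1.65, SE 0.41, limma adjusted p = 0.0072) and Col18a1 (-1.91, SE 0.53, limma adjusted p = 0.0134) fell in LIPUS against Model, beside 28.0% of all genes tested. In the other direction, Col1a1 rose without LIPUS 7 (1.21, SE 0.39, limma adjusted p = 0.0258), beside 1.85% of all genes tested, and when values were scaled to reads outside the mitochondrially encoded genes (1.87, SE 0.46, limma adjusted p = 0.0467), beside 1.91%. These chains were named after their values were seen.

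Genes that make, cut, bind and degrade collagen were taken from 4 lists. Of the 21 tested genes of collagen modification and folding, 16 fell in Model against Control and 20 in LIPUS against Control (limma), beside 43.1% and 74.4% of all genes tested, and 9 and 6 did after scaling, beside 20.2% and 14.3%. The shares of all genes are the same for the lists that follow. Sparc, a collagen-binding matricellular protein, had a Control mean of 456 ± 119 FPKM, a Model mean of 54.2 ± 32.4 and a LIPUS mean of 46.2 ± 8.03 (SD, n = 5), with limma adjusted p = 2.06e-05 in Model. Serpinh1, the collagen-specific chaperone HSP47, went from 63.5 ± 14.4 FPKM to 9.62 ± 5.06 and 6.43 ± 1.17 (SD, n = 5, limma adjusted p = 2.79e-04 in Model). P4hb, a subunit of prolyl 4-hydroxylase and a general folding enzyme, went from 710.1 ± 106 FPKM to 338 ± 162 and 179 ± 85.2 (SD, n = 5), and its fall in Model was not past the threshold after scaling (limma adjusted p = 0.387). Mia3, which loads procollagen into transport carriers, went from 41.9 ± 4.13 FPKM to 15.6 ± 8.62 and 5.95 ± 2.76 (SD, n = 5) and was also past the threshold only as deposited. Ppib, a prolyl isomerase, had 401 ± 48.0 FPKM in Control and 313 ± 113 in Model and did not pass (limma adjusted p = 0.278).

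Of the 11 tested genes of procollagen processing and cross-linking, 9 fell in Model (beside 43.1% of all genes) and 10 in LIPUS against Control (beside 74.4%), and 6 in each after scaling (beside 20.2% and 14.3%). Pcolce, the enhancer of procollagen C-proteinase, had a Control mean of 20.7 ± 6.75 FPKM, a Model mean of 3.53 ± 1.57 and a LIPUS mean of 4.43 ± 1.48 (SD, n = 5, limma adjusted p = 2.99e-05 in Model). The cross-linking enzymes Lox and Loxl2 went from 9.03 ± 1.85 and 5.94 ± 1.51 FPKM to 1.31 ± 0.778 and 0.253 ± 0.0381 in Model and 0.598 ± 0.543 and 0.185 ± 0.147 in LIPUS (SD, n = 5). Tgm2, a transglutaminase, had 52.1 ± 18.8 FPKM in Control and 28.0 ± 17.0 in Model and did not pass (limma adjusted p = 0.0678). Mep1b, a meprin that can cut procollagen, had 17.5 ± 14.8 FPKM in Control and 70.1 ± 44.3 in Model (limma adjusted p = 0.264).

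Of the 10 tested collagen receptors, 8 fell in each comparison with Control, beside 43.1% of all genes in Model and 74.4% in LIPUS, so that the LIPUS count is near the background. After scaling 4 fell in Model and 5 in LIPUS, beside 20.2% and 14.3%. Itgb1, the common beta chain of collagen-binding integrins, had a Control mean of 79.3 ± 14.9 FPKM, a Model mean of 16 ± 8.20 and a LIPUS mean of 14.7 ± 4.08 (SD, n = 5, limma adjusted p = 3.27e-04 in Model). The receptor kinase Ddr1 went from 23.4 ± 2.01 FPKM to 5.27 ± 2.81 and 3.16 ± 2.14, and Adgrg6, an adhesion receptor that binds collagen IV, from 15.2 ± 3.0 FPKM to 3.38 ± 1.48 and 1.80 ± 1.14 (SD, n = 5). Ddr2 and Adgrg1 did not pass in Model (limma adjusted p = 0.0870 and 0.715).

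Of the 5 tested collagen-degrading enzymes, 4 fell in Model on both scales, beside 43.1% of all genes and 20.2% after scaling. In LIPUS 5 fell, beside 74.4%, and 1 after scaling, beside 14.3%, which is near the background. Mmp2, the gelatinase A, had a Control mean of 29.7 ± 7.92 FPKM, a Model mean of 3.61 ± 1.69 and a LIPUS mean of 3.16 ± 0.615 (SD, n = 5, limma adjusted p = 4.46e-06 in Model). Mmp14, its membrane-bound activator, went from 16.6 ± 7.23 FPKM to 1.88 ± 1.39 and 1.99 ± 0.840, and cathepsin K (Ctsk) from 14.7 ± 3.33 FPKM to 2.70 ± 1.69 and 5.09 ± 2.46 (SD, n = 5). Fap, a fibroblast protease, fell as well (limma adjusted p = 7.36e-04 in Model), and Mmp15 did not (limma adjusted p = 0.621). The collagenases Mmp8 and Mmp13 and the gelatinase Mmp9 had group means of at most 0.04 FPKM.

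In LIPUS against Model, 3 of the 47 tested genes of these lists were lower and 2 higher as deposited, beside 13.3% and 1.31% of all genes tested, and they are named after their values were seen. P4ha1, a catalytic chain of prolyl 4-hydroxylase, rose from 0.801 ± 0.417 to 1.70 ± 0.363 FPKM (SD, n = 5, log2 change 1.08, limma adjusted p = 0.0363). Mrc1, a receptor of macrophages that takes up collagen, rose from 1.10 ± 0.412 to 2.42 ± 0.603 FPKM (SD, n = 5, log2 change 1.12, limma adjusted p = 0.0342). Both also passed after scaling (limma adjusted p = 0.0103 and 0.0309). P4ha2, another catalytic chain and higher in Model than P4ha1, did not pass (7.71 ± 4.66 to 4.84 ± 1.51 FPKM, SD, n = 5, log2 change -0.27, limma adjusted p = 0.772). Mrc1 is also 1 of the 5 macrophage markers given below, of which 2 were higher as deposited and 3 after scaling. Fkbp14, Tmem38b and Mep1b fell (log2 changes -1.78, -1.17 and -4.22, limma adjusted p = 0.0338, 0.0439 and 0.0439), none of them after scaling. None of the 5 passed with limma-voom, with the replicate number as a block or with only LIPUS and Model fitted, and none in every fit with 1 library left out, where the highest adjusted p was 0.0941 for P4ha1, 0.0843 for Mrc1, 0.0968 for Fkbp14, 0.117 for Tmem38b and 0.112 for Mep1b. Mep1b went from 70.1 ± 44.3 FPKM in Model to 7.89 ± 8.92 FPKM in LIPUS (SD, n = 5).

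Markers of cells that could make collagen, and of other cells, are set beside it here. All 8 fibroblast markers fell in Model against Control and 7 in LIPUS (limma), beside 43.1% and 74.4% of all genes tested, and 5 and 4 did after scaling, beside 20.2% and 14.3%. They summed to 359 to 532 FPKM in Control, 83.7 to 178 FPKM in Model and 94.4 to 274 FPKM in LIPUS. Dcn, a fibroblast proteoglycan that binds collagen fibrils, went from 258 ± 49.3 FPKM to 78.7 ± 26.2 and 95.4 ± 42.8 (SD, n = 5), a log2 change relative to the median gene of -0.85 in Model. The median of the 8 fibroblast markers by the same measure was -1.61 in Model. Of 7 smooth muscle markers 5 fell in Model and 6 in LIPUS, and 2 in each after scaling, beside the same shares of all genes, with summed levels of 1072 to 2953, 85.7 to 725 and 212 to 343 FPKM in Control, Model and LIPUS. Of 7 endothelial markers 6 fell in Model and 7 in LIPUS, beside 43.1% and 74.4% of all genes tested. After scaling 3 and 7 fell, beside 20.2% and 14.3%. Their summed levels were 19.8 to 35.5, 0.871 to 12.6 and 0.873 to 3.0 FPKM in Control, Model and LIPUS. The 4 luminal epithelium markers summed to 396 to 442 FPKM in Control, 298 to 481 FPKM in Model and 95.9 to 334 FPKM in LIPUS. Of these, 1 fell in Model and 4 in LIPUS, beside 43.1% and 74.4% of all genes tested. After scaling none fell, beside 20.2% and 14.3%, and 2 rose in each, beside 1912 (Model) and 1448 (LIPUS) of 12490 genes. No marker of these 4 lists was at 0 in every library, but Kdr had no read in 5 libraries and Cldn5, both of the endothelial list, in 4. Of the markers of other cells tested, 4 of 4 basal epithelium, 3 of 3 Schwann cell, 3 of 3 adipocyte, 3 of 5 macrophage and 1 of 4 skeletal muscle markers fell in Model, beside 43.1% of all genes. In LIPUS 4, 2, 3, 0 and 2 of the same lists fell, beside 74.4%. After scaling 2, 0, 3, 1 and 0 fell in Model, beside 20.2%, and 1, 1, 2, 0 and 0 in LIPUS, beside 14.3%. In LIPUS 2 macrophage markers rose after scaling, beside 1448 of 12490 genes. Summed levels in Control, Model and LIPUS were 53.7 to 71.8, 4.58 to 43.5 and 8.42 to 79.1 FPKM for basal epithelium, and 10.9 to 17.5, 5.40 to 15.1 and 12.5 to 24.4 FPKM for macrophages. They were 15.9 to 33.9, 2.23 to 7.78 and 3.35 to 19.6 FPKM for Schwann cells, 12.7 to 202, 0.321 to 10.5 and 1.59 to 13.1 FPKM for adipocytes, and 103 to 534, 1.71 to 246 and 18.6 to 44.3 FPKM for skeletal muscle. In LIPUS against Model, 2 endothelial and 1 luminal epithelium marker were lower, beside 13.3% of all genes tested. In the same comparison 1 basal epithelium and 2 macrophage markers were higher, beside 1.31%. After scaling 1 luminal marker was lower, beside 1.49%, and 2 basal and 3 macrophage markers were higher, beside 2.73%. No marker of the other cells was called there. The part of these cells, and of the mitochondrial share of reads, in the collagen differences was not tested.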

How the data were processed

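The authors deposited 1 table of FPKM, for 22436 genes of rat prostate in 15 samples. The labels' protocols name TRIzol for RNA extraction and a VAHTS Universal V5 kit for the libraries. DESeq2, R 3.2.0, HTSeq, HISAT2, SAMtools and fastp, and the rat build rn6, are listed in the submitters' processing notes with no role or order. Strand is not given in the sources used here.

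From the deposited FPKM, the reads behind each value were recovered by searching for the gene length and library total that make all values of a gene whole. All 22436 genes came out whole within 0.001 reads. Recovered reads gave depth (29675962 to 36402094 per library), limits for 0 reads (up to 3 reads, counting error only) and shares. No libraries of a group agreed within sampling noise (lowest chi-square per degree of freedom 75.1).

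Genes above 0.5 FPKM in 5 or more of 15 samples (12490) were fitted as log2(FPKM + 0.1) in R 4.3.3 with limma 3.58.1, all samples in 1 fit with pooled spread and a trend on mean level. The p-values were adjusted by Benjamini-Hochberg over all tested genes, with a threshold of 0.05. A fold change on this scale understates the change of low genes. Median-of-ratios scaling used the 10313 genes with reads in every library. Ratios were compared in Python 3.11.15 by exact permutation of the libraries, two-sided, adjusted over 24 tests. The scripts were tested on simulated data. Up to 3 chains per class with the highest mean FPKM have values in every sample, and up to 5 genes per pathway list are named by the same measure. The members, classes and lists were chosen with earlier results of these data known. In the prostate marker list, 2 genes are not reported here, and its sum is over the other 6. Alternatives were other scalings, pseudocounts, filters, sample sets, a replicate block, each sample left out, and limma-voom on recovered reads.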

Additional observations from a re-analysis of the deposited data

Results flagged for a closer look

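Within each group, 117 sets of 5 values were looked at for a library far from the other 4, and 6 were found; chance gives about 1 in 20 such sets. Col8a1 was at 0.0309 FPKM in Model 6 and at 0 in the other Model libraries. It was at 0.0493 FPKM in LIPUS 7 and at 0 in the other LIPUS libraries. The log2 ratio of Col6a1 to Col6a2 in Control 9 was 0.58, under the 0.66 to 0.67 of the other Control libraries. The Col6a3 to Col6a1 ratio in Model 7 was -2.49, and the Col15a1 to Col18a1 ratio in the same library was 2.46. The Col5a1 to Col5a2 ratio in LIPUS 7 was -3.19.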

How the results depend on the processing

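Against Control, leaving out any 1 sample gave 26 chains lower in Model, beside 4587 to 6438 of 12490 genes, 27 lower in LIPUS, beside 8471 to 10009, and 0 higher. In LIPUS against Model the chains lower ranged from 0 to 4 (4 without Model 7) and those higher from 0 to 1 (1 without LIPUS 7, and 1 when scaled to nuclear reads). The values gave no sign that replicate numbers pair the samples: correlations of same-numbered deviations ran from -0.42 to 0.25. Such correlations cannot exclude that same-numbered samples were matched. With the replicate block, 26 chains were below Control in Model, beside 5273 of 12490 genes, and 27 were in LIPUS, beside 9173. In LIPUS against Model 0 chains were lower with the block, beside 1 of 12490 genes. Ratio pairs past the threshold numbered 0 in each comparison with the block, whose sign-flip test cannot give p below 0.0625. With a pseudocount of 1 they numbered 2 in LIPUS against Model and 5 in LIPUS against Control. Leaving out 1 sample gave 5 to 7 pairs in Model against Control, 1 to 3 in LIPUS against Model (3 without Model 7 and 3 without LIPUS 7) and 3 to 4 in LIPUS against Control. Shares of reads in Control were 71.0% fibrillar, 9.56% basement membrane and 3.32% FACIT.

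Direction turned in LIPUS against Model for chains past no threshold. With 1 sample left out, log2 changes ran from -0.37 (without Model 7) to 0.33 for Col1a2, from -0.069 (Model 7) to 0.40 for Col4a2 and from -0.036 (Model 7) to 0.31 for Col6a2, which was -0.00082 without LIPUS 6. They ran from -0.55 to 0.21 for Col16a1, positive without Model 9 (0.21), Model 10 (0.020), LIPUS 6 (0.0062) or LIPUS 10 (0.079), from -0.46 to 0.15 (LIPUS 6) for Col15a1, and from -0.078 (LIPUS 7) to 0.12 for Col8a1. Col16a1 and Col15a1 gave 0.38 and 0.42 with median-of-ratios scaling, with and without the filter, 0.59 and 0.56 with nuclear scaling, and 0.56 and 0.18 with limma-voom, where Col18a1 gave 0.46 and Col17a1 0.44. In LIPUS against Control, with a pseudocount of 1, the log2 ratio differences were 0.76 for Col4a1 to Col1a1, -0.16 for Col6a1 to Col6a2 and 0.48 for Col6a3 to Col6a1. Col6a1 to Col6a2 ran from -0.085 (without LIPUS 7) to 0.21, with -0.059 and -0.045 without LIPUS 8 or 10. The causes were not tested. Of the other values of single chains and pairs, 1767 kept direction and side, 21 newly passed and 31 no longer passed. The planned count test on recovered reads was not run, and limma-voom and scaling without a filter were added after seeing the data. Levels near 0 rest on few reads (4 for Col8a1 in Model 6), and log2 changes of chains under 1 FPKM move with the pseudocount.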

Other observations

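Over the 26 chains with a Control mean of at least 1 FPKM, the change relative to the median gene and the gene length behind the FPKM correlated weakly in Model against Control (Pearson r 0.18, Spearman rho 0.23) and in LIPUS against Control (0.018 and 0.043). In LIPUS against Model the values were -0.36 and -0.36. These correlations are across genes of the same libraries and are descriptions without a test.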
